A study of Mus musculus with 2 samples.

Results

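The naive pluripotent-like cells of day 4 eye organoids were 1560 cells that carried 10 or more UMIs (unique molecular identifiers, each marking 1 captured RNA molecule) of Dppa5a and fewer than 5 UMIs of Col4a1. They made up 19.97% of the 7812 day 4 cells that passed a filter of at most 26000 UMIs, at most 5000 detected genes and 0.5 to 10% of UMIs in mitochondrially encoded (mt-) genes (exact Clopper-Pearson 95% interval 19.09 to 20.87%, counting error only). The day 4 library held 9114 barcodes, and the series held 16560 over day 4 and day 6. Dppa5a, whose product is an RNA-binding protein of the early embryo, chose the cells, and Col4a1, a basement membrane collagen of primitive endoderm, removed 24 other cells with 10 or more Dppa5a UMIs. Their reference was the 6228 filtered day 4 cells with fewer than 10 Dppa5a UMIs, called the rest.

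Eye organoids are aggregates of mouse embryonic stem cells that turn into anterior neural and then retinal tissue in culture. All cells came from 1 stem cell line, heterozygous for a GFP knock-in at Rax, a transcription factor gene of the eye field, and were taken on culture day 4 or day 6. Before aggregation the line had been kept with LIF and blasticidin, and the aggregates of both days had received Matrigel, a basement membrane extract. Per the labels, each day was 1 library that pooled 3 biological experiments. Cells could not be assigned to an experiment from the files used here, which leaves 1 sample per day, and no p-value was computed. Every interval below covers counting error within 1 library, not the spread between cultures. The labels call the cells retina progenitors, but on day 4 the eye field genes Rax, Lhx2 and Pax6 stood at 1.05, 1.25 and 2.21 CPM (UMIs of a gene per 1000000 UMIs, summed over the cells of a group) in naive pluripotent-like cells, and at 4.18, 5.44 and 5.39 CPM in the rest. The anterior genes Six3 and Hesx1 were higher, at 3.41 and 13.5 CPM in naive pluripotent-like cells and at 30.6 and 60.6 CPM in the rest.

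Mouse embryonic stem cells kept with the cytokine LIF are held in naive pluripotency, the state of the epiblast before implantation. A network of transcription factors that includes ESRRB, NANOG, KLF2, KLF4 and TFCP2L1 upholds this state. On leaving it, cells pass through a formative state that resembles the epiblast just after implantation, in which FGF5, OTX2, POU3F1 and the DNA methyltransferase DNMT3B are made while the core factors OCT4 (Pou5f1) and SOX2 are kept, and from there they become primed for germ layers such as neural ectoderm. Zfp42, also called Rex1, is a widely used reporter gene of the naive state, and Tdgf1 encodes CRIPTO, a co-receptor of NODAL.

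Promoter sequences are shown for Zfp42, Tdgf1 and Klf2, 3 of the 6 marker genes and those for which the RefSeq promoter table of build GRCm38.p6 had an entry. Each is the 250 bases before the transcription start, 5′ to 3′ on the strand of the gene, with matches to the motifs searched in capitals. Zfp42 and Klf2 lie on chromosome 8 at chr8:43307010-43307259 on the minus strand and chr8:72318812-72319061 on the plus strand, and Tdgf1 lies at chr9:110946159-110946408 on the minus strand.
Zfp42: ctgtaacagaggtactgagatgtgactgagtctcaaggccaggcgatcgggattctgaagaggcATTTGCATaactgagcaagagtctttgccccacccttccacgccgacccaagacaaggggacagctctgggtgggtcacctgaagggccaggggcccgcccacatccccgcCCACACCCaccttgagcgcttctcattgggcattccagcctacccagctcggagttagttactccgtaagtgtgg
Tdgf1: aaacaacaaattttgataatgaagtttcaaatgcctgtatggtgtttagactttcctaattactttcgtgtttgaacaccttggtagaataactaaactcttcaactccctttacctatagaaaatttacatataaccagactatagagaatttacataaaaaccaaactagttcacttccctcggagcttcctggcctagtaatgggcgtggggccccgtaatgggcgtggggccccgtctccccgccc
Klf2: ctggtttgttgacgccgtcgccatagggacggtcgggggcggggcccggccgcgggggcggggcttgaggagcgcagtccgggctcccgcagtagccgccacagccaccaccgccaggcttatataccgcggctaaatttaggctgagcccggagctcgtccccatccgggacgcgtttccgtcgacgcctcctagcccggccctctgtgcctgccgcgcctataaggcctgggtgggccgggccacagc
Both strands were searched for the octamer ATGCAAAT that OCT4 and other POU factors bind, for GGGTGTGG of the KLF family, for TCAAGGTCA of ESRRB and for TTCCNGGAA of STAT factors. The Zfp42 window held the octamer 179 to 186 bases before the start and the KLF motif 68 to 75 bases before it, and the Tdgf1 and Klf2 windows held none of the 4. Of all 32851 promoter windows, 1.60% held the octamer, 3.20% the KLF motif, 0.387% the ESRRB motif and 0.913% the STAT motif. A match describes letters in a window and does not show that a factor binds there.

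Dppa5a counts ran without a gap across the threshold, so the rule takes a range of counts. Whether the cells are a separate population was not tested. Among the naive pluripotent-like cells the Dppa5a count was 10 at the lowest, 30 at the median and 275 at the highest, while 2651 cells of the rest with fewer than 5 Col4a1 UMIs had none and 1594 had 1. The 122 cells with 10 or 11 Dppa5a UMIs, just inside the threshold, held 66.2 CPM of Zfp42, 282 CPM of Tdgf1 and 153 CPM of Fgf5. The 167 cells with 8 or 9, just outside it, held 51.4 CPM of Zfp42, 122 CPM of Tdgf1 and 194 CPM of Fgf5. Summed over cells, naive and formative genes were thus present on either side of the threshold. Such sums do not show whether single cells carried both.

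**Figure D1:**
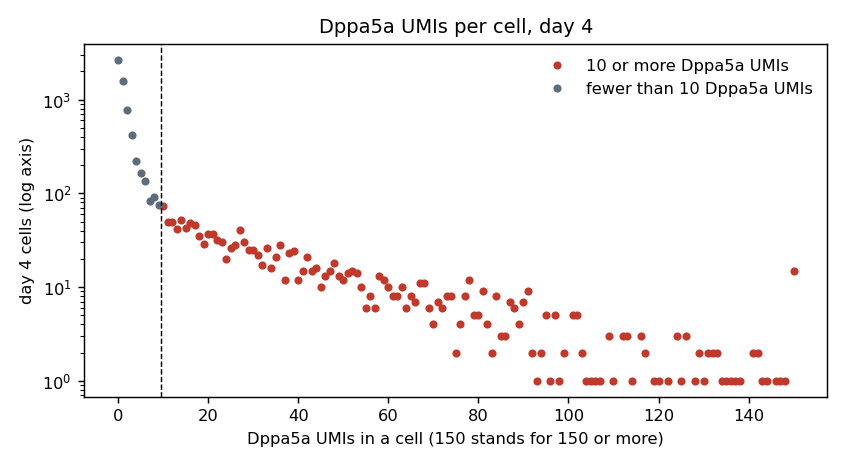
Number of day 4 cells (y axis, log scale) at each Dppa5a UMI count (x axis), for filtered cells with fewer than 5 Col4a1 UMIs. The dashed line is the threshold of 10 UMIs, and the counts decline across it without a gap, from 2651 cells with no Dppa5a UMI to a last point that pools 150 UMIs or more.

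The 5 markers that the rule did not use were counted after each cell was thinned at random to 5000 UMIs to remove differences in depth. The label and its markers come from these same data, so the shares describe the cells and do not test the label. Of 1542 naive pluripotent-like cells with at least 5000 UMIs, 43.6% had a UMI of 3 or more of Zfp42, Tdgf1, Tdh, Dppa4 and Klf2 (41.2 to 46.2%), against 1.43% of 6089 cells of the rest (1.15 to 1.76%). Without thinning the shares were 70.8% and 3.47%. In the 18 filtered cells with 5 or more Col4a1 and fewer than 10 Dppa5a UMIs, which carried endoderm genes and should lack these markers, 0 cells had 3 or more, which, as a limit of 3 counts in 18, allows a share of up to 16.7% (exact upper bound 18.5%). Median depths were 11956 UMIs in naive pluripotent-like cells, 11288 UMIs in the rest and 9116 UMIs in the 18 endoderm-like cells. At the other end, 172 of the 1542 thinned cells (11.2%) had none of the 5 markers, and 67 (4.35%) had all of them.

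Single markers were detected in varying shares of the thinned naive pluripotent-like cells. Tdgf1 was detected in 67.6% of them and in 4.76% of the rest, Dppa4 in 42.1% and 5.40%, and Zfp42 in 41.5% and 3.63%. Tdh, encoding the threonine dehydrogenase on which mouse embryonic stem cells depend, was detected in 38.7% of naive pluripotent-like cells and 6.06% of the rest, and Klf2 in 34.3% and 4.40%. Among the 18 endoderm-like cells Zfp42 was seen in 2 and Tdh in 4, and Tdgf1, Dppa4 and Klf2 in 0. At this depth a missing UMI does not show a missing marker. Fgf5 was detected in 34.4% of the naive pluripotent-like cells and in 52.2% of the rest, Otx2 in 51.6% and 47.2%, and Nanog in 12.3% and 4.98%, with Fgf5 and Otx2 each in 1 and Nanog in 0 of the 18 endoderm-like cells. Without thinning, Tdgf1 was detected in 80.8% of naive pluripotent-like cells and 7.34% of the rest, and Nanog in 24.9% and 10.6%.

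On the summed UMIs, all 5 other markers were 9.45 to 21.5 times as high in the naive pluripotent-like cells as in the rest. Because the cells were chosen by a gene measured in the same cells, these levels and all other ratios against the rest are a description with no test. Tdgf1 stood at 389 CPM in naive pluripotent-like cells and 18.1 CPM in the rest, a ratio of 21.5 (exact conditional 95% interval 20.3 to 22.8). Zfp42 stood at 173 and 8.17 CPM, a ratio of 21.2 (19.4 to 23.1). Klf2 was at 94.7 CPM against 8.63 CPM (ratio 10.97, 10.03 to 12.01), Tdh at 122 CPM against 12.8 CPM (9.53, 8.84 to 10.3) and Dppa4, a chromatin protein of pluripotent cells, at 109.8 CPM against 11.6 CPM (9.45, 8.73 to 10.2). Across the 6438 genes with a mean over both groups of at least 10 CPM, and with Dppa5a and Col4a1 left out, 253 (3.93%) were at least 2-fold higher in naive pluripotent-like cells and 204 (3.17%) at least 2-fold lower, and the median log2 ratio was -0.19.

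**Figure D2:**
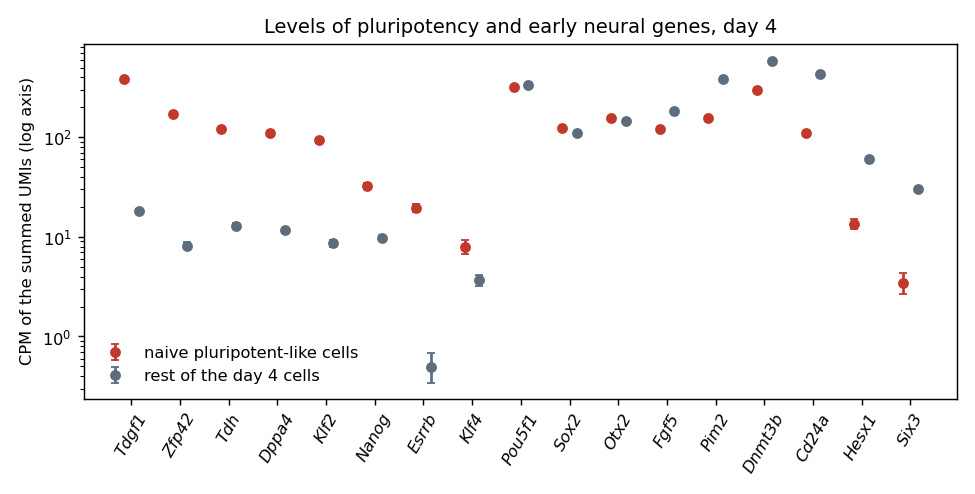
CPM of the summed UMIs (y axis, log scale) of 17 genes in the naive pluripotent-like cells (red, left of each pair) and in the rest of the day 4 cells (grey, right). Bars are exact Poisson 95% intervals, and the 5 markers on the left are 9.45 to 21.5 times as high while Pou5f1, Sox2 and Otx2 are nearly level.

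Of 20 transcription factors and chromatin readers of naive pluripotency, 12 passed the 10 CPM minimum, and 10 of these were at least 2-fold higher in naive pluripotent-like cells, with a median log2 ratio of 2.84 over the 12. Nr0b1, encoding the orphan receptor DAX1, stood at 27.9 CPM in naive pluripotent-like cells and 1.91 CPM in the rest, and Dppa2, the partner of Dppa4, at 26.3 and 1.97 CPM. Klf5 was at 25.9 CPM against 2.67 CPM, Zfp57, which guards methylation at imprinted loci, at 26.2 CPM against 4.82 CPM, and the cell cycle factor gene Mybl2 at 145 CPM against 33.7 CPM. Nanog reached only 32.4 CPM in naive pluripotent-like cells, against 9.73 CPM in the rest. Jarid2 (135 and 115 CPM) and Sall4 (91.9 and 158 CPM) were the members that passed the minimum without being 2-fold higher. Several core regulators did not reach the minimum. Esrrb stood at 19.5 CPM in naive pluripotent-like cells and 0.490 CPM in the rest, Klf4 at 7.97 and 3.67 CPM, Tfcp2l1 at 7.17 and 0.913 CPM, Tbx3 at 4.21 and 0.410 CPM, and Prdm14 at 1.86 and 0.0662 CPM.

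Other genes typical of naive cells followed the same direction. Of 27 listed, 18 passed the minimum and 17 of these were at least 2-fold higher, the exception being the co-repressor gene Trim28 (186 CPM in naive pluripotent-like cells and 170 CPM in the rest). Spp1, the secreted matrix protein osteopontin, was at 220 CPM against 12.8 CPM (ratio 17.2, 16.0 to 18.5), and the FGF ligand gene Fgf4 at 24.97 CPM against 1.96 CPM. Ooep and Khdc3, which encode parts of the subcortical maternal complex of the oocyte, were at 72.6 CPM against 4.63 CPM and 16.2 CPM against 0.185 CPM. Upp1, a uridine phosphorylase gene, was at 695 CPM against 86.5 CPM, and the metallothionein genes Mt1 and Mt2, whose products bind zinc, were at 4777 and 3781 CPM in naive pluripotent-like cells, against 1873 and 1117 CPM in the rest.

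Among the 12 genes of highest ratio at a mean of 20 CPM or more, led by Fam25c (58.6 CPM in naive pluripotent-like cells and 1.95 CPM in the rest, ratio 30.1, 25.3 to 36.0), were genes of varied function. Fbxo15, an F-box gene once used as a reporter of pluripotency, was at 48.5 CPM against 2.03 CPM. Hspb1, the small heat shock protein HSP27, was at 512 CPM in naive pluripotent-like cells, against 26.2 CPM in the rest (ratio 19.6, 18.7 to 20.6). Dpys, a pyrimidine catabolism enzyme gene, stood at 55.1 and 3.15 CPM, the kinase gene Sgk1 at 46.6 and 3.63 CPM, the epoxide hydrolase gene Ephx2 at 40.9 and 3.23 CPM, and the embryonic stem cell non-coding RNA Lncenc1 at 70.2 and 4.17 CPM. Outside the naming rule, and picked after its values were seen, Gm9112 had the highest ratio of all 6438 genes, with 80.9 CPM against 1.06 CPM (76.4, 61.0 to 96.8). Picked in the same way, Gpx4, the glutathione peroxidase that protects membrane lipids from oxidation, held 4786 CPM against 496 CPM (9.65, 9.54 to 9.77). It was detected in 98.8% of thinned naive pluripotent-like cells and 80.1% of thinned cells of the rest, and in all 18 endoderm-like cells. Dppa5a, Tdgf1 and Gpx4 each have a near copy among the annotated pseudogenes, so the split of reads between copies is uncertain.

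Genes that naive and primed cells share were mostly level between the groups. Of 16 listed, 15 passed the minimum, of which 2 were at least 2-fold higher, 1 was at least 2-fold lower and 12 were in between. The shares over all genes were 3.93% higher and 3.17% lower. Pou5f1 stood at 318 CPM in naive pluripotent-like cells and 333 CPM in the rest (ratio 0.956, 0.930 to 0.983), and Sox2 at 124 and 109.7 CPM. The 2 higher genes were Utf1, a chromatin factor gene, with 555 CPM against 223 CPM, and Tcea3, an elongation factor gene, with 68.1 CPM against 10.7 CPM. The lower gene was Lin28a, an RNA-binding protein gene that blocks maturation of let-7 microRNAs, with 78.2 CPM against 160.0 CPM. Pou5f1 was detected in 75.8% of thinned naive pluripotent-like cells and 76.2% of thinned cells of the rest, and in 2 of the 18 endoderm-like cells.

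Formative and primed genes were split. Of 24 listed, 16 passed the minimum, 4 of these were at least 2-fold lower in naive pluripotent-like cells, 1 was at least 2-fold higher and 11 were in between, with a median log2 ratio of -0.61. The shares over all genes were 3.17% lower and 3.93% higher. The surface protein gene Cd24a stood at 111 CPM in naive pluripotent-like cells and 438 CPM in the rest (0.254, 0.243 to 0.265), the carbonic anhydrase gene Car14 at 16.3 and 57.7 CPM, Sall2 at 17.4 and 52.0 CPM and the kinase gene Pim2 at 156 and 383 CPM (0.407, 0.392 to 0.423). Dnmt3b came close to the limit at 300.3 CPM against 592 CPM (0.507, 0.494 to 0.521), while Fgf5 held 121 CPM against 185 CPM (0.653, 0.625 to 0.682). Otx2 (158 and 146 CPM) and Pou3f1 (59.2 and 47.4 CPM) were slightly above the rest. Tcf15, a bHLH factor gene that primes stem cells for differentiation, was 9.74 times as high, with 68.3 CPM in naive pluripotent-like cells and 7.02 CPM in the rest.

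Anterior neural genes had the lowest median log2 ratio of the lists, at -2.13. Of 24 listed, 7 passed the minimum and 5 of these were at least 2-fold lower in naive pluripotent-like cells, the others being Sox2 and Zic5 (53.6 CPM in naive pluripotent-like cells and 64.8 CPM in the rest). The share at least 2-fold lower over all genes was 3.17%. Six3, a homeobox factor of forebrain and eye, had the lowest ratio of all 6438 genes, with 3.41 CPM against 30.6 CPM (0.111, 0.0862 to 0.142), and was detected in 1.04% of thinned naive pluripotent-like cells and 10.9% of thinned cells of the rest (3.01% and 19.3% without thinning), beside 2 of the 18 endoderm-like cells. Hesx1, a homeobox repressor of the anterior neural plate, stood at 13.5 and 60.6 CPM. Shisa2 and Sfrp1, inhibitors of WNT signalling, stood at 7.52 and 46.2 CPM and at 19.7 and 86.3 CPM.

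Id1, Id2 and Id3, targets of BMP signalling that hold back differentiation factors, were all at least 2-fold lower, with 18.9, 9.07 and 65.0 CPM in naive pluripotent-like cells, against 90.8, 61.4 and 236 CPM in the rest. They were the only 3 of the 7 measured BMP pathway genes past the limit, and none was 2-fold higher. Over all genes 3.17% were at least 2-fold lower and 3.93% at least 2-fold higher. Bmp4 itself was under the 10 CPM minimum, with 10.2 CPM in naive pluripotent-like cells and 1.01 CPM in the rest. The other genes among the 12 of lowest ratio were led by Ptn, the growth factor pleiotrophin, with 4.61 CPM against 37.1 CPM (0.124, 0.09996 to 0.153). They included Lpar4, a lysophosphatidic acid receptor gene (9.12 and 43.7 CPM), Tspan6 (12.9 and 58.6 CPM), the retinoic acid-binding protein gene Crabp2 (24.2 and 101 CPM), the actin bundler gene Pls3 (17.4 and 70.1 CPM) and Greb1l (8.92 and 34.9 CPM).

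**Figure D3:**
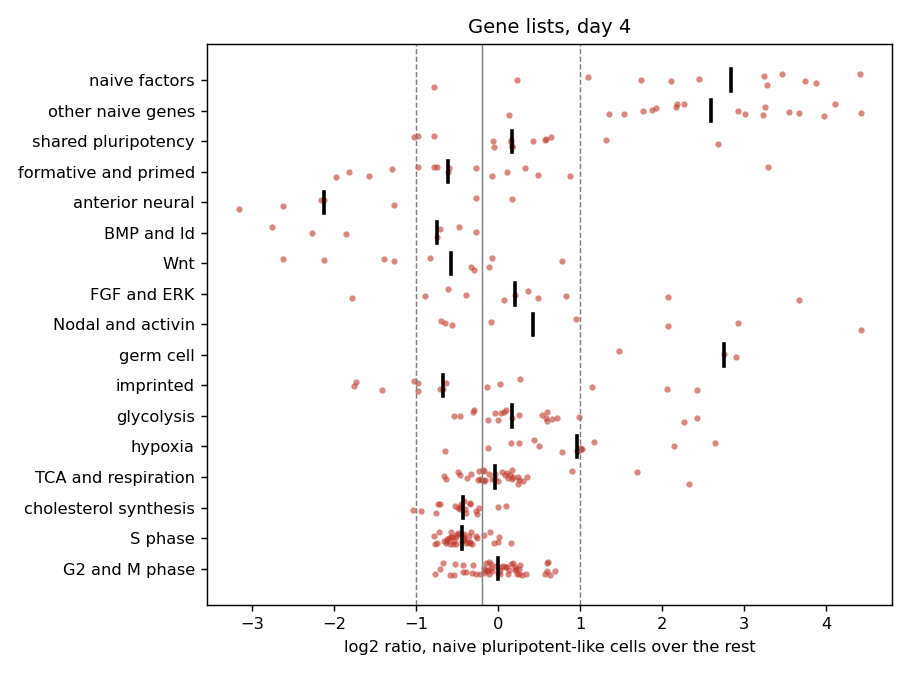
Log2 ratio of naive pluripotent-like cells over the rest (x axis) for the members of 17 gene lists that averaged at least 10 CPM, 1 point a gene, with the list median as a black bar. Dashed lines mark 2-fold, the solid grey line the median of all 6438 genes at -0.19, and the list medians reach from -2.13 for anterior neural genes to 2.84 for naive factors.

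Signalling genes showed no common direction. Over all genes, 3.93% were at least 2-fold higher and 3.17% at least 2-fold lower. In the LIF pathway 3 of 13 genes passed the minimum, and the kinase genes Pim1 (25.2 CPM in naive pluripotent-like cells and 6.98 CPM in the rest) and Pim3 (43.7 and 20.8 CPM) were at least 2-fold higher, whereas Jak1 was level (15.7 and 15.3 CPM). Below the minimum, the receptor genes Lifr (9.38 and 1.84 CPM) and Il6st (13.4 and 4.83 CPM), Stat3 (12.03 and 4.35 CPM) and its target Socs3 (6.57 and 1.69 CPM) were all above the rest. In the FGF and ERK list, with 11 of 19 measured, Fgf4 and the ETS factor gene Etv5 (133 and 31.7 CPM) were at least 2-fold higher and the receptor gene Fgfr1 (24.4 and 84.2 CPM) at least 2-fold lower. In the NODAL and activin list, with 8 of 18 measured, the co-receptor gene Tdgf1, the ligand gene Gdf3 (40.8 and 5.36 CPM) and the inhibitor gene Lefty1 (16.7 and 3.97 CPM) were at least 2-fold higher and none was 2-fold lower. Of 10 measured WNT pathway genes, 4 were at least 2-fold lower, among them the WNT secretion factor gene Wls (3.86 and 23.8 CPM) and Tcf7l2 (8.32 and 21.8 CPM), and none was 2-fold higher.

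DNA methylation genes differed within the family. The counts for imprinted and germ cell genes below stand beside 3.93% higher and 3.17% lower over all genes. The catalytically inactive cofactor gene Dnmt3l was at 50.1 CPM in naive pluripotent-like cells, against 4.28 CPM in the rest (ratio 11.7, 10.3 to 13.3), and Dnmt3a at 109 CPM against 59.5 CPM, while Dnmt3b was lower, as given above. Tet1, which oxidises 5-methylcytosine, was at 85.1 CPM against 39.9 CPM. The maintenance methyltransferase gene Dnmt1 (42.1 and 53.01 CPM) and its partner Uhrf1 (48.7 and 61.6 CPM) stayed within 2-fold. Of 15 measured imprinted genes, 3 were at least 2-fold higher, namely H19 (63.8 and 11.9 CPM), Peg10 (42.1 and 10.1 CPM) and Phlda2 (27.3 and 12.4 CPM), and 4 were at least 2-fold lower, namely Mest (85.0 and 282 CPM), Ndn (9.93 and 33.6 CPM), Nnat (42.6 and 113 CPM) and Gnas (82.0 and 167 CPM). Germ cell genes that passed the minimum were 3 of 16, and all 3 were at least 2-fold higher. These were the synaptonemal complex gene Sycp3 (152 and 54.7 CPM), and Mael (20.6 and 2.75 CPM) and Tex19.1 (24.7 and 3.65 CPM), which act in transposon silencing.

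Metabolic lists differed in how many members passed 2-fold, beside shares of 3.93% higher and 3.17% lower over all genes. Of 21 measured glycolytic genes, 2 were at least 2-fold higher and none 2-fold lower, with a median log2 ratio of 0.17. Ldhb, the lactate dehydrogenase subunit of oxidative tissues, stood at 1097 CPM in naive pluripotent-like cells and 229 CPM in the rest (4.79, 4.69 to 4.88), whereas Ldha stood at 1576 and 2182 CPM (0.722, 0.714 to 0.731). The phosphofructokinase gene Pfkp was at 85.6 CPM against 16.0 CPM. The glucose transporter genes Slc2a1 (401 and 412 CPM) and Slc2a3 (431 and 289 CPM) stayed within 2-fold. Of 35 nuclear genes of the TCA cycle and respiratory chain, all measured, the pyruvate carrier gene Mpc1 (40.2 and 8.03 CPM) and the cytochrome oxidase subunit gene Cox7a1 (44.2 and 13.7 CPM) were at least 2-fold higher, and the median log2 ratio was -0.04. Among 15 measured hypoxia-responsive genes 13 had a ratio above 1 and 5 were at least 2-fold higher, with a median log2 ratio of 0.96, led by Pdk1, an inhibitory kinase of pyruvate dehydrogenase, with 222 CPM against 35.8 CPM (6.22, 5.93 to 6.53). Tdh was the only 1 of 18 measured one-carbon genes past the limit. Of 20 measured cholesterol synthesis genes 19 had a ratio below 1, with a median log2 ratio of -0.43, and Sc5d (7.12 and 14.7 CPM) was at least 2-fold lower.

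Genes of the S, G2 and M phases stayed within 2-fold. None of 41 measured S phase genes and none of 51 measured G2 and M phase genes passed the limit in either direction, although 38 of the 41 S phase genes had a ratio below 1, with a median log2 ratio of -0.44, beside -0.19 over all genes and -0.01 over the G2 and M phase genes. The CDK inhibitor gene Cdkn1a was 4.19 times as high in naive pluripotent-like cells (67.7 and 16.2 CPM), and the cyclin gene Ccnd2 was lower (3.81 and 20.3 CPM). Among 15 measured p53 and apoptosis genes, Cdkn1a, Trp53inp1 (43.8 and 17.0 CPM) and Mcl1 (90.4 and 45.0 CPM) were at least 2-fold higher and none was 2-fold lower. In the stress list Nupr1 alone, of 11 measured, was at least 2-fold higher (33.5 and 10.1 CPM). The cell cycle, p53 and stress counts stand beside 3.93% higher and 3.17% lower over all genes. Neither the 18 measured MYC and nucleolar genes nor, among adhesion genes, the E-cadherin gene Cdh1 (93.5 and 84.0 CPM) passed the limit. The N-cadherin gene Cdh2, which marks neural epithelium, was at 4.21 CPM in naive pluripotent-like cells, against 17.1 CPM in the rest. Fibronectin (Fn1) was at 76.1 CPM against 15.5 CPM, and the claudin gene Cldn4 at 21.5 CPM against 5.67 CPM.

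Markers of other cell types were mostly low in the naive pluripotent-like cells. The 16 endoderm list genes summed to 1066 CPM, against 507 CPM in the rest, of which most came from Apoe, the cathepsin gene Ctsl (166 and 142 CPM) and the laminin gene Lamb1 (17.1 and 24.1 CPM), the 3 that passed the minimum. The transcription factor and receptor genes Gata6, Gata4, Sox17, Foxa2 and Cubn each stood at 1.05 CPM or less, and Gata4 was detected in 2 of the 1542 thinned cells. Low endoderm levels were partly set by the rule, which removed 24 cells with 5 or more Col4a1 UMIs (241 CPM of Gata6 and 171 CPM of Gata4). The rest had no Col4a1 limit and kept the 18 endoderm-like cells, so these levels do not show that endoderm is absent. In the 18 endoderm-like cells Gata4 was detected in 11. Apoe, a lipid transport gene that pluripotent cells also express, was the only 1 of the 3 at least 2-fold higher (868 and 298 CPM). No gene of the mesoderm, trophoblast, neural crest or fibroblast lists reached a mean of 10 CPM. Their summed levels in naive pluripotent-like cells were 11.3, 25.7, 12.9 and 5.62 CPM, against 6.30, 5.92, 12.7 and 13.8 CPM in the rest. Cdx2, a defining trophoblast gene, and Col3a1, a fibroblast collagen gene, had no UMI in naive pluripotent-like cells. The trophoblast genes Elf5 and Gata3 had 1 and 5 UMIs there. Tfap2c, listed with the trophoblast genes but also counted among the germ cell genes below, went the other way, with 8.07 CPM in naive pluripotent-like cells and 0.424 CPM in the rest. It was detected in 3.83% of thinned naive pluripotent-like cells and 0.246% of thinned cells of the rest. The share of UMIs in ribosomal protein genes was higher in naive pluripotent-like cells, with a median of 39.0% against 34.6%, and the mitochondrial share was 2.91% against 3.07%. On totals without mt-, Rpl and Rps genes together, 435 genes were at least 2-fold higher in place of 253, and 76 of 78 named genes past 2-fold stayed past it. The part of the ribosomal share alone was not tested.

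Within the naive pluripotent-like cells, most measured naive factors were higher and most measured formative and primed genes lower at a higher Dppa5a level. The 1542 thinned cells were placed in 4 bins of 0 to 5, 6 to 11, 12 to 23 and 24 or more Dppa5a UMIs out of 5000, with 223, 406, 569 and 344 cells, and Dppa5a itself was left out of the totals. Zfp42 was at 45.8, 95.8, 176 and 382 CPM from the lowest to the highest bin, against 8.17 CPM in the rest. Tdgf1 was at 183, 335, 453 and 540.5 CPM, Klf2 at 49.1, 70.2, 101 and 157 CPM, and Dppa4 at 60.1, 93.3, 126 and 150 CPM. Esrrb was at 8.78, 13.2, 21.9 and 33.7 CPM, while Nanog was at 18.9, 14.9, 32.5 and 66.8 CPM, with overlapping intervals in its lower 2 bins. The share of cells with 3 or more of the 5 other markers was 12.6, 33.3, 48.7 and 67.7% over the bins.

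Fgf5 ran the other way, with 194, 159, 96.1 and 50.5 CPM from the lowest to the highest bin, beside 185 CPM in the rest. Pim2 was at 293, 211, 111 and 42.6 CPM, Dnmt3b at 533, 368, 229.9 and 129.7 CPM, and Cd24a at 210, 134, 82.7 and 43.3 CPM. Pou3f1, above the rest as a whole, was at 80.9, 77.2, 56.7 and 21.3 CPM. Pou5f1 (314, 312, 308 and 353 CPM) and Otx2 (149, 157, 169 and 150.8 CPM) were nearly level over the bins. The lowest bin thus held Fgf5 and Pou3f1 at or above the rest together with Zfp42 above it, and the highest bin held low Fgf5, Pim2 and Dnmt3b with Otx2 not reduced.

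**Figure D4:**
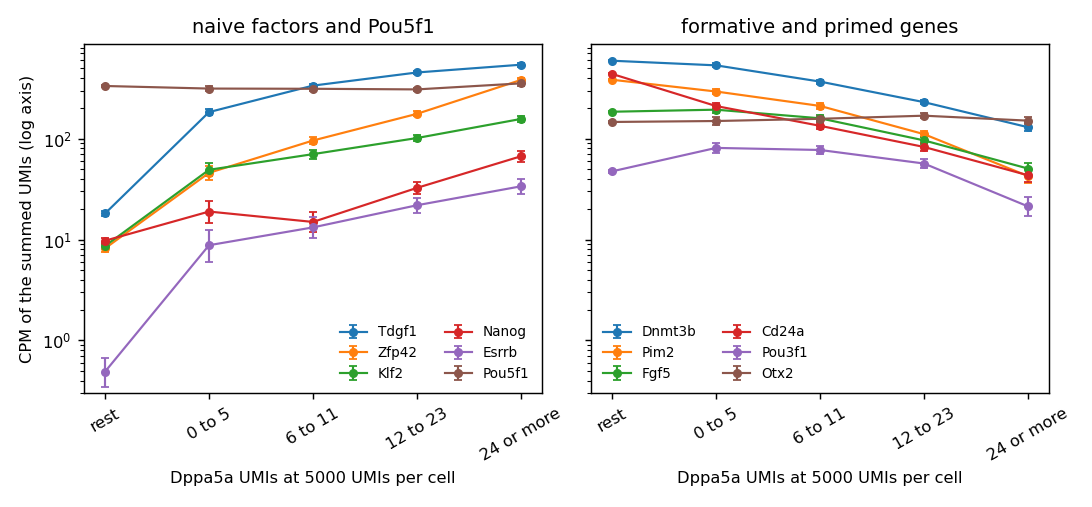
CPM of the summed UMIs (y axis, log scale) in the rest and in 4 bins of naive pluripotent-like cells by Dppa5a UMIs after thinning to 5000 UMIs (x axis), with exact Poisson 95% intervals. Zfp42 runs from 8.17 to 382 CPM and Pim2 from 383 to 42.6 CPM along the axis, while Pou5f1 and Otx2 stay nearly flat.

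Of 6364 genes that averaged at least 10 CPM over the lowest and highest bins, 208 (3.27%) were at least 2-fold higher in the highest bin and 245 (3.85%) at least 2-fold lower. Zfp42 had a ratio of 8.33 between them (7.10 to 9.83), and Pim2 a ratio of 0.145 (0.123 to 0.171). Of the 15 naive factors that passed the minimum here 11 were at least 2-fold higher in the highest bin, and of 15 formative and primed genes 9 were at least 2-fold lower, 5 were in between and 1 was at least 2-fold higher. That gene was Tcf15, with 31.8, 59.5, 77.8 and 97.8 CPM from the lowest to the highest bin. Hypoxia genes were level over the bins, with 0 of 17 measured at least 2-fold higher and 1 at least 2-fold lower. Ribosomal protein shares differed little (medians 37.1, 38.8, 39.5 and 39.4%), but the lowest bin was deeper, with a median of 15902 UMIs, against 11787, 11211 and 11224.5 UMIs in the higher bins. The rule favours deep cells there, because membership needs 10 or more Dppa5a UMIs before thinning and this bin holds 5 or fewer after it. Among cells of 8000 to 14000 UMIs only, with 157 cells in the highest and 71 in the lowest bin, the ratio was 7.46 for Zfp42 (5.44 to 10.5), 0.139 for Pim2 (0.101 to 0.189) and 0.283 for Fgf5 (0.211 to 0.376).

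Zfp42 and Fgf5 were also compared cell by cell. After thinning, 129 of 640 naive pluripotent-like cells with a Zfp42 UMI had an Fgf5 UMI (20.2%, 17.1 to 23.5%), against 401 of 902 without one (44.5%, 41.2 to 47.8%). Shares within the Dppa5a bins ran the same way. Fgf5 was found in 43.2, 30.4, 20 and 10.8% of the cells with a Zfp42 UMI from the lowest to the highest bin, against 56.4, 51.2, 37.9 and 26.5% of those without. In the lowest bin only 44 cells had a Zfp42 UMI, and the intervals overlapped. The intervals cover counting error within 1 library, so the shares in all bins are a description with no test. So 129 barcodes carried UMIs of both genes at this depth. Doublets and free RNA were left in, and their part in these counts was not tested.

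Dppa3 and the Zscan4 genes had UMIs in few cells. Dppa3, a maternal factor also called Stella, had a UMI in 85 naive pluripotent-like cells (5.45%, 4.38 to 6.69%) and in 12 cells of the rest (0.193%). In those 85 cells Zfp42 was at 313 CPM, against 164 CPM in the other 1475 naive pluripotent-like cells, Nanog at 63.5 CPM against 30.5 CPM, and Dnmt3b at 190 CPM against 307 CPM. Tdgf1 was slightly lower in them (333 and 393 CPM) and Sycp3 lower (82.7 and 156 CPM). Median depths were 12475 and 11928 UMIs. The germ cell genes Prdm1 and Nanos3 stood at 3.31 and 0.702 CPM in naive pluripotent-like cells and at 0.304 and 0.278 CPM in the rest.

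The Zscan4 genes, which mark a transient 2-cell-like state of embryonic stem cells, are a family of near copies and were read only as a sum. A summed count of 3 or more was seen in 5 naive pluripotent-like cells (0.321%, 0.104 to 0.746%) and in 3 cells of the rest (0.0482%). The 5 cells held 53, 19, 17, 8 and 4 Zscan4 UMIs, and the 3 cells of the rest held 55, 55 and 23. Of the 5, 2 cells held 8 UMIs each of Sp110, another gene of this state. With so few cells no level could be compared.

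The 1560 cells were 19.97% of the filtered day 4 cells, and on day 6 the same rule chose 493 of 6440 filtered cells (7.66%, 7.02 to 8.33%). Day and library cannot be told apart. Median depth was 11956 UMIs on day 4 and 14474 UMIs on day 6, and the median Dppa5a count was 30 on day 4 and 62 on day 6. No cell barcode was a member on both days, and 91 barcodes (0.998% of the day 4 barcodes) appeared in both libraries. Of 6798 genes that averaged at least 10 CPM on day 6, 552 (8.12%) were at least 2-fold higher in the cells under the rule than in the other 5876 filtered cells and 810 (11.9%) at least 2-fold lower. All but 1 of 14 measured naive factors were at least 2-fold higher. Of the 253 genes higher on day 4, 211 were also higher on day 6, which is 83.4% of the day 4 genes and 38.2% of the day 6 genes. Of the 204 lower genes 165 were shared, 80.9% of the day 4 and 20.4% of the day 6 genes.

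Set directly against the day 6 cells of the same rule, the day 4 naive pluripotent-like cells held more of the formative genes. Of 6486 genes averaging at least 10 CPM, 44 (0.678%) were at least 2-fold higher on day 4 and 108 (1.67%) at least 2-fold lower. Among 15 measured formative and primed genes, 7 were at least 2-fold higher on day 4 and none 2-fold lower. Of these, Dnmt3b was at 300.3 CPM on day 4 and 74.5 CPM in day 6 cells (ratio 4.03, 3.69 to 4.41), Fgf5 at 121 and 53.1 CPM, Pim2 at 156 and 21.96 CPM and Pou3f1 at 59.2 and 18.0 CPM. The day 6 cells also carried more Dppa5a, with 5255 CPM against 3127 CPM on day 4. In the day 4 bin of highest Dppa5a, Dnmt3b was at 129.7 CPM, Pim2 at 42.6 CPM and Pou3f1 at 21.3 CPM. Cells of equal Dppa5a level were not compared between the days. Mt1 and Mt2 held 4777 and 3781 CPM in day 4 cells, against 1653 and 1299 CPM in day 6 cells.

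Of 16 measured naive factors, 6 were above and 10 below the day 6 level. None was 2-fold higher on day 4 and 3 were at least 2-fold lower, including Nanog (32.4 CPM on day 4, against 72.2 CPM on day 6). For Zfp42 the levels were 173 CPM on day 4 and 264 CPM in day 6 cells. Esrrb (19.5 and 21.0 CPM) and Tdgf1 (389 and 319 CPM) were closer between the days. Nr0b1 had the highest ratio among the 16 measured naive factors, with 27.9 CPM in day 4 cells against 16.6 CPM in day 6 cells (1.68, 1.38 to 2.06). Of 26 measured other naive genes, 6 were at least 2-fold lower on day 4 and 2 at least 2-fold higher. Their median log2 ratio was -0.56, beside -0.19 for the naive factors. Of 7 measured germ cell genes 5 were at least 2-fold lower on day 4, among them Dppa3 with 11.4 CPM in day 4 and 57.5 CPM in day 6 cells and Tfap2c at 8.07 and 31.6 CPM. Stra8, a retinoic acid-induced gene of meiosis picked after its values were seen, had the lowest ratio, with 5.77 CPM in the day 4 and 153 CPM in the day 6 cells. Lefty1 (16.7 and 81.5 CPM) and the keratin gene Krt19 (17.6 and 105 CPM) were also lower on day 4.

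**Figure D5:**
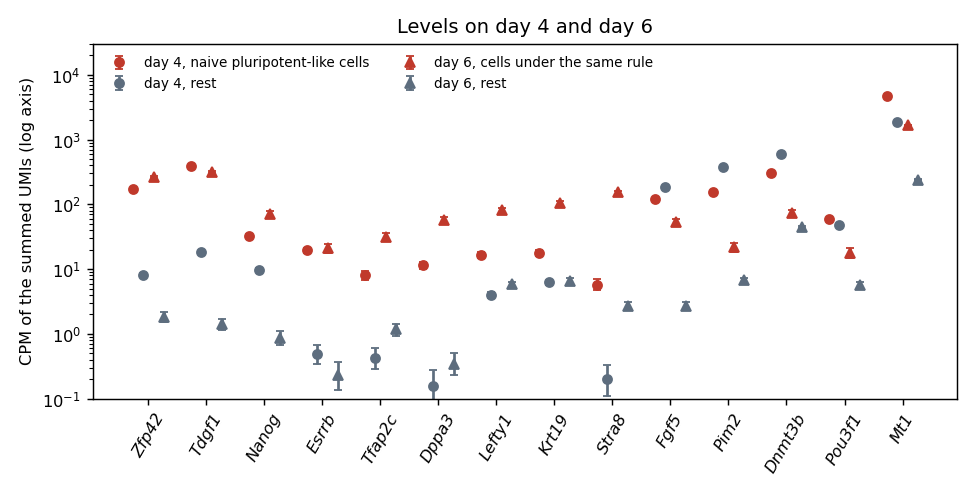
CPM of the summed UMIs (y axis, log scale) of 14 genes on day 4 (circles) and day 6 (triangles), in the cells under the rule (red) and the rest (grey), with exact Poisson 95% intervals. Fgf5, Pim2 and Dnmt3b are lower in both day 6 groups than on day 4, and Stra8 in the cells under the rule stands at 5.77 CPM on day 4 and 153 CPM in the later library.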

How the data were processed

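The authors deposited raw UMI counts per gene and barcode for each day, aligned to mm10 and not normalized. Cell Ranger 2.0.1 and Seurat 2.3.4 stand in the submitters' processing notes, while the study's methods give later versions. The deposited counts were filtered as stated in the report. For each group, UMIs were added up and scaled to CPM. Intervals were exact Poisson for levels, conditional binomial for ratios and Clopper-Pearson for shares, at 95% (scipy 1.17.1, Python 3.11.15), and cover counting error only. PCR duplicates were collapsed by UMI. Free RNA was not removed. Scrublet (scanpy 1.11.5) marked 3 of 8151 cells (0.0368%), too few to be used as calls for a library of this size, so doublets were left in, and its scores served 1 alternative only. Thinning left out 18 naive pluripotent-like cells and 139 cells of the rest that were under 5000 UMIs. The ratio step was tested on simulated data. Members and gene lists (602 of 605 genes found) were chosen with earlier results of these data known. Genes were named by a rule of the 6 markers, the 12 highest and 12 lowest ratios among genes of 20 CPM or more (without mt-, ribosomal, haemoglobin and unnamed genes) and up to 4 members of each list by absolute log2 ratio. Any other gene named, such as Gpx4, Gm9112, Esrrb, Fgf5, Pim2 or Stra8, was chosen after its values were seen. Alternatives changed the cell filter, the Dppa5a and Col4a1 limits, the comparison cells, the totals, the depth range, doublet removal and the CPM minimum.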

Additional observations from a re-analysis of the deposited data

Results flagged for a closer look

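Dppa5a signal appeared outside the cells described. Among barcodes above 26000 UMIs, which the filter left out, 248 held 10 or more Dppa5a UMIs, with a median depth of 34310 UMIs, 98.2 CPM of Zfp42 and 194 CPM of Fgf5. Among barcodes with under 0.5% mitochondrial UMIs 21 did so, with a median of 8099 UMIs, 516 CPM of Zfp42, 273 CPM of Klf2 and 9.92 CPM of Fgf5. The 24 filtered cells removed for 5 or more Col4a1 UMIs held 3546 CPM of Dppa5a, 1164 CPM of Dab2, 923 CPM of Cubn, 241 CPM of Gata6 and 31.9 CPM of Pou5f1, and no Klf2 UMI.

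Among listed or named genes that averaged at least 10 CPM on both days, 5 had ratios of the cells under the rule over the rest that were at least 4-fold apart between the days and whose intervals lay below 1 on day 4 and above 1 on day 6. Other genes crossed 1 with a smaller gap, such as Dnmt3b (0.507 on day 4 and 1.65 on day 6). The ratio was 0.956 on day 4 and 49.7 on day 6 for Pou5f1, 0.653 and 19.6 for Fgf5, 0.407 and 3.23 for Pim2, 0.729 and 12.4 for the claudin gene Cldn7, and 0.662 and 11.98 for the polarity gene Crb3. Pou5f1 held 318 CPM in the day 4 and 243 CPM in the day 6 cells under the rule, against 333 and 4.89 CPM in the rest of each library. The difference between the days was not tested, since each day was 1 library.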

How the results depend on the processing

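No paired analysis was possible because each day was 1 library, and for the same reason no replicate could be left out. The number of cells was 688 among cells of 8000 to 14000 UMIs and 1094 to 2109 under the other cell limits tried. The 2-fold higher genes, 253 in the report, came to 435 on totals without mt-, Rpl and Rps genes, 415 at a minimum of 5 CPM and 60 at 50 CPM, and to 207 to 302 otherwise. The 2-fold lower genes, 204 in the report, came to 114 with 5 or more Dppa5a UMIs, 350 at 5 CPM and 42 at 50 CPM, and to 197 to 292 otherwise. At 50 CPM, 4 naive factors were higher and 2 formative and primed genes lower, against 9 to 13 and 3 to 5 under the other settings. The share with 3 or more other markers was 34.7% with 5 or more Dppa5a UMIs, 51.0% with 20 or more and 70.8% with no thinning. With 1 or more Zscan4 UMIs, 12 cells counted in place of 5. The ratio of Col4a1, which the rule used, reversed to 2.33 with no limit on Col4a1. Of 78 named genes past 2-fold, 72 to 78 stayed past it over 12 settings. The depth and the single library limit every value here to counting error, and genes under 10 CPM were read only as levels.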
